A study of Xenopus laevis with 27 samples.

Results

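The comparison described here set amputated tails of Xenopus laevis collected 1 day post amputation (1 dpa) against tails collected 0 minutes post amputation (0 mpa). It used the 3 libraries A to C of each time, 6 of the 27 libraries of a series that followed tails over 9 times from 0 mpa to 7 dpa. All 29776 genes of the deposited count table were considered, and 22268 of them held enough reads to be tested. Each library was total RNA of tails pooled from 20 embryos at what the labels call the regenerative stage, without a stage number, and the tails of all 27 libraries had been amputated. The strain is not given in the sources used here. Each time has what the labels name biological triplicates, but their clutches are not stated. Unless a fit on fewer libraries is named, a p-value here rests on the spread among libraries of a time, estimated over all 27 libraries. It does not rest on a spread among known clutches. Uncut tails aged for 1 day were not analysed here, so 1 day of development and the response to amputation cannot be told apart.

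An amputated tadpole tail is first covered by a wound epidermis, an ectodermal sheet that lies directly on the stump and signals to it. Beneath it a regeneration bud of proliferating cells gathers, from which spinal cord, notochord, muscle and fin regrow. The collection at 1 dpa falls between closure of the wound and outgrowth of the bud, when matrix is being cleared and the cells of the bud are being assembled.

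Total counts were 4356539 to 5114908 at 0 mpa and 5208593 to 6332675 at 1 dpa. Library 1 dpa B stood apart from its replicates. Thinned to 1000000 counts it detected 16244 genes, against 21569 in 1 dpa A, 21819 in 1 dpa C and 19764 to 20620 at 0 mpa. Across genes, Pearson's r of log2(CPM + 1) was 0.960 between 1 dpa A and C but 0.872 and 0.873 between 1 dpa B and these. CPM here is the read count per 1000000 counts, scaled by edgeR's TMM factors. The defining markers of tail tissues were present. Summed over 12 skeletal muscle genes the level was 129285 to 215311 CPM at 0 mpa and 47030 to 84664 CPM at 1 dpa. Over 20 epidermal genes it was 2661 to 2728 CPM at 0 mpa and 4356 to 5552 CPM at 1 dpa. The epidermal members did not all rise. Krt8.1.S was at 121, 147 and 129 CPM at 0 mpa and at 868, 705 and 1319 CPM at 1 dpa. Krt12.4.S was at 776, 883 and 910 CPM at 0 mpa and at 372, 803 and 666 CPM at 1 dpa. Markers of notochord and cartilage summed to 8003 to 10057 CPM at 0 mpa and 7367 to 10138 CPM at 1 dpa. Col2a1.L and col2a1.S made up most of this sum, which hides the other markers. Matn4.L was at 176, 177 and 127 CPM at 0 mpa and at 74.2, 28.2 and 56.5 CPM at 1 dpa. Shh.L was at 29.3, 23.1 and 26.9 CPM at 0 mpa and at 40.1, 68.8 and 42 CPM at 1 dpa. The sum for 7 genes of organs outside the tail was at most 4.78 CPM, and 3 of these genes were at 0. Blood markers were lowest in 0 mpa B, with 388 CPM against 761 to 1579 CPM in the other 5 libraries.

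At 1 dpa, genes of wound epidermis, matrix breakdown, immediate early response and ectodermal patterning were among those that had risen. Genes of muscle, connective tissue and pigment cells were among those that had fallen. The lists for ectodermal patterning, connective tissue and pigment cells were drawn up after values were seen, so their counts are no test of these roles. Lists of genes with these roles follow, each with its number of tested genes, the number that passed the test in either direction and the median log2 fold change of its tested members. By edgeR's quasi-likelihood test with Benjamini-Hochberg adjustment, 1016 of 22268 tested genes changed at an adjusted p under 0.05 (4.56%), of which 665 were higher (2.99%) and 351 lower (1.58%). The median log2 fold change of all tested genes, always given as 1 dpa minus 0 mpa, was -0.01. Each of the 1016 changed at least 2-fold and 210 at least 8-fold. The libraries of the 2 times did not overlap for 650 of the 665 higher and 347 of the 351 lower genes. Over all tested genes the 1 dpa libraries lay wholly above those of 0 mpa for 13.8% and wholly below for 12.6%. In the 6 fits that left out 1 library, 366 of the 1016 genes passed every time and 57 never did. The number of changed genes was 604 without 0 mpa A and 501 without 0 mpa B, and 681 without 1 dpa B. RLE scaling moved the median of all genes to -0.13 and the split to 580 higher and 502 lower. In bulk RNA, fewer cells of a type and less RNA per cell cannot be told apart, which holds for each result below.

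**Figure D1:**
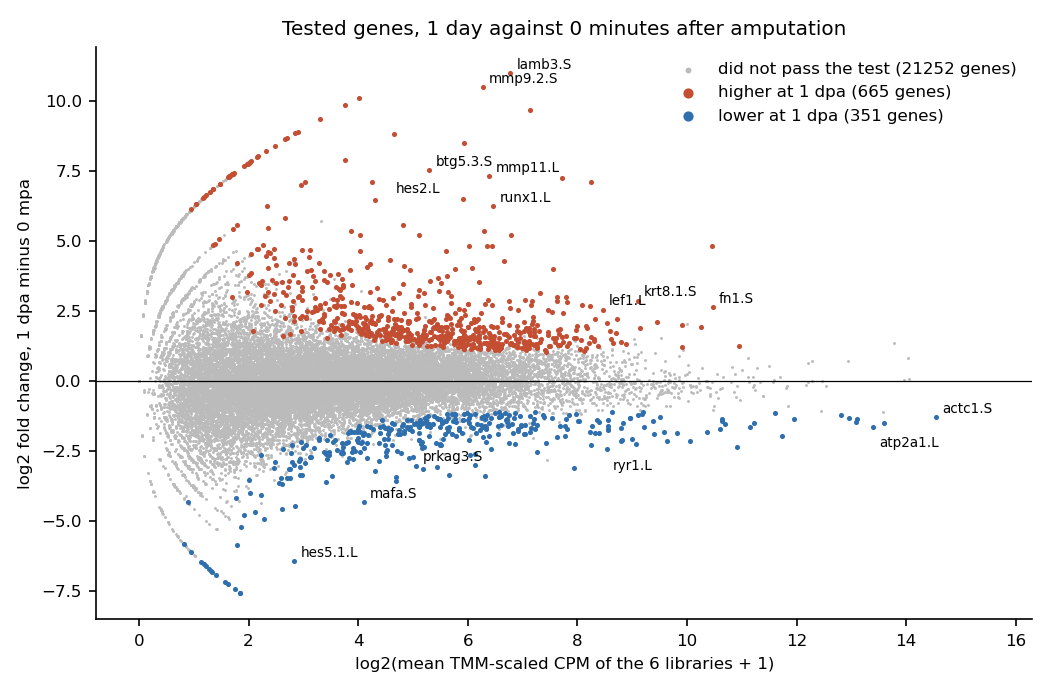
Log2 fold change at 1 dpa minus 0 mpa (vertical axis) against the log2 of the mean TMM-scaled CPM of the 6 libraries plus 1 (horizontal axis), with 1 point for each of 22268 tested genes. Red points are the 665 higher and blue points the 351 lower genes, and the lower genes reach further to the right, where actc1.S and atp2a1.L, abundant genes of muscle, lie. The threshold was missed by actc1.S without 0 mpa B (adjusted p = 0.278), 0 mpa C (0.0726), 1 dpa A (0.0729), 1 dpa B (0.0701) and 1 dpa C (0.199); atp2a1.L without 0 mpa B (0.0536).

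Chains of laminin-332, the anchoring laminin of epidermal basement membrane, rose, and lamb3.S stood among the 12 largest increases picked by the naming rule. Lamb3.S, its beta chain, was at 0, 0.252 and 0 CPM at 0 mpa and at 280.1, 146 and 223 CPM at 1 dpa (ratio of summed reads 2849, 95% counting interval 511 to 112569, adjusted p = 1.16e-13). The alpha chain lama3.L was at 8.87, 13.3 and 22.4 CPM at 0 mpa and at 94.5, 37.7 and 57.7 CPM at 1 dpa (log2 fold change 2.09 ± 0.48 SE, adjusted p = 0.00413). Both were higher in each 1 dpa library than in each 0 mpa library, and 1 dpa B held the lowest level of either at that time. Frem3.L, of a matrix protein family that holds epidermis to dermis, was at 178, 98.4 and 174 CPM at 0 mpa and at 517, 893 and 670.4 CPM at 1 dpa (log2 fold change 2.21 ± 0.36 SE, adjusted p = 2.11e-05), with 1 dpa B highest. Col17a1.L, the hemidesmosome collagen, rose by 1.23 ± 0.32 on the log2 scale. Of 37 tested genes of basement membrane and hemidesmosome, 7 were higher and 1 lower (3 lower in DESeq2), with a median of 0.28. The count of higher genes was 3 without 0 mpa A and 4 without 0 mpa B, 1 dpa A or 1 dpa C, and the count of lower genes was 0 without each library but 1 dpa A. Calls were lost for lama3.L without 0 mpa A (adjusted p = 0.0542) and in DESeq2 (0.112); col17a1.L without 0 mpa A (0.0667), 0 mpa B (0.0966), 1 dpa A (0.0568) and 1 dpa C (0.0765).

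Epidermal genes that passed the test were all higher at 1 dpa. Of 105 tested epidermal genes 17 were higher and 0 lower, with a median of 0.52. Among 26 keratins 8 were higher, and 15 had a positive fold change. Krt18.1.S, a simple-epithelium keratin, was at 4.797, 11.8 and 6.68 CPM at 0 mpa and at 113, 61.4 and 202 CPM at 1 dpa (log2 fold change 4.02 ± 0.43 SE, adjusted p = 4.45e-10), and its partner krt8.1.S at 121, 147 and 129 CPM at 0 mpa and at 868, 705 and 1319 CPM at 1 dpa (log2 fold change 2.86 ± 0.38 SE, adjusted p = 1.81e-07). Krt8.1.L rose by 2.72 ± 0.35 on the log2 scale. These simple keratins also belong to the notochord list, where 8 of 60 tested genes were higher and 2 lower (1 without 0 mpa A or 1 dpa C, 0 without 0 mpa B). Cldn6.1.S, a tight junction claudin, was at 0.4797, 2.01 and 1.72 CPM at 0 mpa and at 29.9, 13.5 and 8.61 CPM at 1 dpa (log2 fold change 3.6 ± 0.58 SE, adjusted p = 2.68e-05). The levels of the keratins and the claudin did not overlap between the times. The desmosome gene dsp.S (log2 fold change 2.41 ± 0.41), krt12.2.S (2.22 ± 0.4) and the annexin 2 partners anxa2.S (2.72 ± 0.38) and s100a10.L (2.68 ± 0.4), chosen after their values were seen, rose as well. Krt12.5.S went the other way without being called, at 426, 434 and 372 CPM at 0 mpa and at 273, 134 and 369 CPM at 1 dpa. Krt61.L was at 0 in all 3 libraries at 0 mpa and at 0.998, 18.2 and 1.48 CPM at 1 dpa (at least 24.2-fold higher, adjusted p = 0.0203), so most of its reads lay in 1 dpa B, and it missed the threshold without 0 mpa A (adjusted p = 0.0862), 0 mpa B (0.0931), 0 mpa C (0.0789) and 1 dpa B (0.238). Its call was also lost in DESeq2 (adjusted p = 0.508), without 5 shallow or low-complexity libraries (0.172) and without 1 dpa B and the 2 shallowest libraries (0.205). The count of higher epidermal genes was 10 without 0 mpa A and 11 without 0 mpa B. Reads may have been split between the near-identical copies of keratin families, so single members are uncertain.

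Scaffold proteins that link actin to cell adhesions formed a further group, listed after values were seen, with 22 of 68 tested genes higher, 4 lower and a median of 0.72. Tns4.L, a focal adhesion tensin, was at 3.84, 1.76 and 5.38 CPM at 0 mpa and at 106, 91.4 and 78.8 CPM at 1 dpa (log2 fold change 4.62 ± 0.46 SE, adjusted p = 4.29e-11). Palladin, which bundles actin in moving cells, was higher from both copies, with palld.L at 45.1, 64.9 and 55.3 CPM at 0 mpa and at 447, 326 and 402 CPM at 1 dpa (log2 fold change 2.83 ± 0.33 SE, adjusted p = 6.08e-09) and palld.S rising by 2.87 ± 0.38 on the log2 scale. None of these genes overlapped between the times. Lima1.L rose by 2.12 ± 0.36, lmcd1.S by 2.65 ± 0.38 and zyx.S, which encodes zyxin, by 1.45 ± 0.36. The 4 lower members included mypn.S, a copy of myopalladin, which is a palladin relative of muscle (-1.67 ± 0.38). Among 35 integrins and their partners 2 were higher, itga5.L (the fibronectin receptor chain, 1.51 ± 0.34) and zyx.S. With 0 lower, this list had a median of 0.40, and 2.99% of all tested genes were higher. Leaving out 0 mpa A, 0 mpa B or 1 dpa A brought the 22 scaffold genes to 12, 8 and 14, and that of 4 lower genes was 1 without 0 mpa B and 2 without 1 dpa C. The call of zyx.S was lost without 0 mpa A (adjusted p = 0.0870), 0 mpa B (0.0597) and 1 dpa B (0.134).

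**Figure D2:**
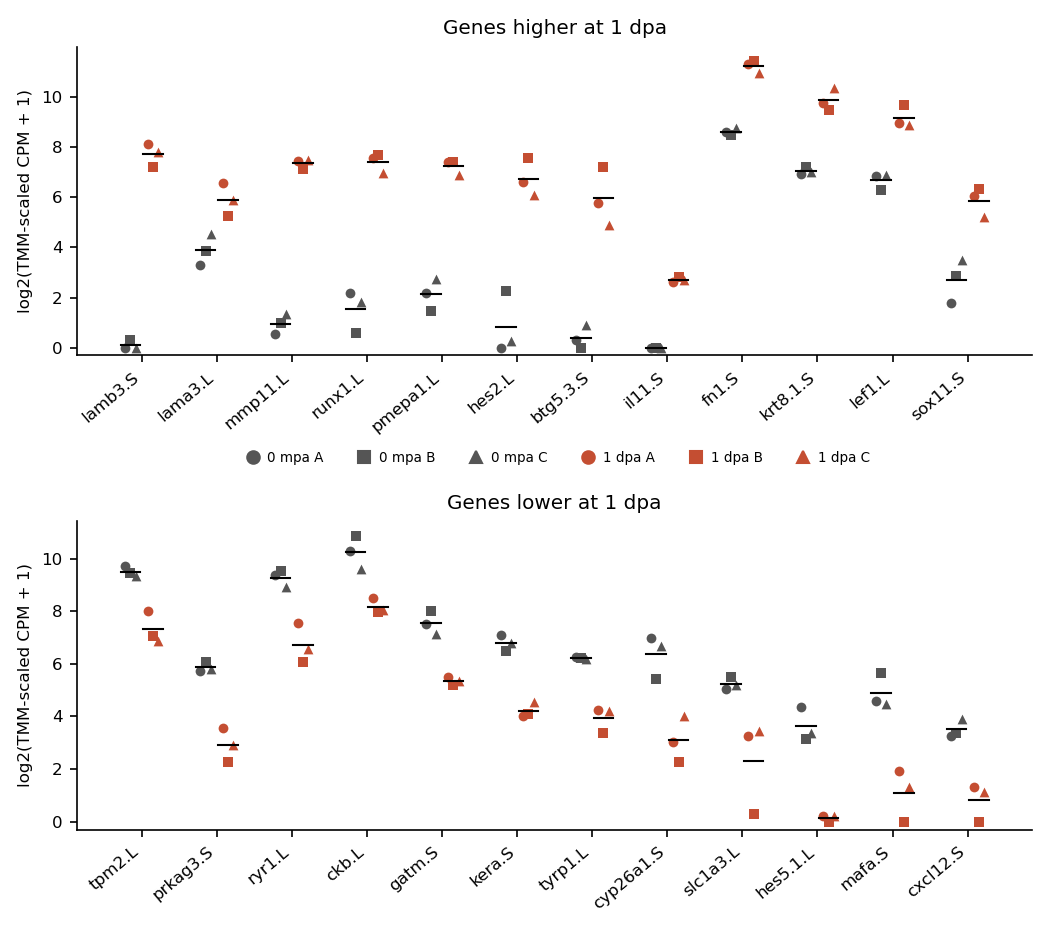
Log2(TMM-scaled CPM + 1) of 12 genes that were higher (top) and 12 that were lower (bottom) at 1 dpa, with 1 point per library and a bar at the mean of the 3 libraries of a time. Grey marks 0 mpa and red 1 dpa, and the marker shape gives the library letter; slc1a3.L, hes5.1.L, mafa.S and cxcl12.S were at or near 0 in 1 dpa B.

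Matrix metalloproteinases cut the proteins of the extracellular matrix, and 13 of 26 tested were higher at 1 dpa with 0 lower and a median of 1.89. Mmp1.S, a collagenase, was at 9.35, 1.01 and 2.58 CPM at 0 mpa and at 776, 425 and 604 CPM at 1 dpa (log2 fold change 7.12 ± 0.59 SE, adjusted p = 2.45e-12). Mmp19.L was at 0.2399, 1.51 and 0.646 CPM at 0 mpa and at 32.8, 17.7 and 39.5 CPM at 1 dpa (log2 fold change 5.21 ± 0.73 SE, adjusted p = 1.61e-06), and both were picked with their values in view. Mmp13l.S, a collagenase-3-like copy, was at 0 in all 3 libraries at 0 mpa and at 8.65, 1.33 and 8.01 CPM at 1 dpa (at least 27.7-fold higher, adjusted p = 0.00170). No library of 0 mpa reached the lowest 1 dpa level of these 3, although 1 dpa B held few reads of mmp13l.S. Reads may have been split between members of the mmp9 and mmp13 families. Of 35 tested ADAM and ADAMTS proteases 4 were higher and 1 was lower. Adam33.L rose by 2.69 ± 0.4 on the log2 scale and adam19.S, which sheds growth factors from the cell surface, fell by 2.71 ± 0.65 and had 0 reads in 1 dpa B. Adam33.L, adam19.S and plat.L were named after their values were seen. Plat.L, tissue plasminogen activator, was at 3.84, 1.76 and 1.51 CPM at 0 mpa and at 27.6, 13.5 and 34.7 CPM at 1 dpa (log2 fold change 3.41 ± 0.63 SE, adjusted p = 1.89e-04). Adam19.S was not called in a fit on the 6 libraries of these times alone (adjusted p = 0.0759).

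Of 23 tested inhibitors of proteases 3 were higher and 1 lower (2 without 1 dpa B, 3 in DESeq2). Tfpi2.S, a Kunitz inhibitor of plasmin, was at 4.32, 10.8 and 10.3 CPM at 0 mpa and at 91.97, 84.5 and 58.2 CPM at 1 dpa (log2 fold change 3.2 ± 0.39 SE, adjusted p = 3.81e-08). The groups stood apart. Wfdc1.L, a whey acidic protein family member, was at 26.9, 28.2 and 28.4 CPM at 0 mpa and at 6.82, 5.32 and 5.49 CPM at 1 dpa (log2 fold change -2.24 ± 0.51 SE, adjusted p = 0.00305), with little spread within either time. Serpinb1.L rose by 2.84 ± 0.8 and missed the threshold without 0 mpa A (adjusted p = 0.145), 0 mpa B (0.119), 1 dpa A (0.0627) and 1 dpa C (0.0730), and in a fit on the 6 libraries alone (0.0569). Tissue inhibitor of metalloproteinases 1 carries a hyphenated symbol that the list did not match, and was added after values were seen. Timp-1.L was at 3.36, 11.3 and 4.52 CPM at 0 mpa and at 108, 69.4 and 126 CPM at 1 dpa (log2 fold change 3.99 ± 0.54 SE, adjusted p = 1.61e-06) and timp-1.S rose by 1.78 ± 0.37.

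Among genes of structural matrix, collagen chains gave few calls in edgeR, and collagen making and matrix glycoproteins gave more. Over all tested genes 2.99% were higher and 1.58% lower. Of 48 collagen chains 1 was higher, col17a1.L, and 1 lower, col4a5.L (4 lower in DESeq2), with a median of -0.16. Of 47 genes that modify and fold collagen 1 was higher and 4 lower (8 lower in DESeq2), with a median of -0.45. Without 1 dpa B the counts for collagen making were 0 and 2, and 0 genes were higher without 0 mpa A or 1 dpa C. Colgalt2.S, a collagen galactosyltransferase, was at 57.8, 47.6 and 71.1 CPM at 0 mpa and at 11.1, 6.43 and 15.4 CPM at 1 dpa (log2 fold change -2.4 ± 0.41 SE, adjusted p = 5.34e-05), and serpinh1.S, the collagen chaperone, at 147, 213 and 201 CPM at 0 mpa and at 64.9, 38.6 and 82.1 CPM at 1 dpa (log2 fold change -1.59 ± 0.34 SE, adjusted p = 0.00126). Both were lower in every 1 dpa library than in any 0 mpa library. Fibronectin, the provisional matrix of wounds, was at 389, 358 and 431 CPM at 0 mpa and at 2577, 2747 and 1983 CPM at 1 dpa for fn1.S (log2 fold change 2.63 ± 0.38 SE, adjusted p = 1.81e-06). Ltbp3.S, which stores latent TGF-beta in matrix, rose by 1.94 ± 0.41 and thbs1.L, thrombospondin 1, by 1.58 ± 0.36, while thbs4.S fell by 1.67 ± 0.36. Of 72 matrix glycoproteins 6 were higher (3 without 0 mpa A, 0 mpa B or 1 dpa A) and 4 lower (1 without 0 mpa A or 1 dpa B, 2 without 0 mpa B or 1 dpa C). Thbs1.L and thbs4.S were named after their values were seen. The threshold was missed by col17a1.L without 0 mpa A (adjusted p = 0.0667), 0 mpa B (0.0966), 1 dpa A (0.0568) and 1 dpa C (0.0765); col4a5.L without 0 mpa A (0.148), 0 mpa B (0.105), 0 mpa C (0.0721), 1 dpa A (0.0623), 1 dpa B (0.161) and 1 dpa C (0.123).

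Of 36 tested genes of connective tissue and tendon, a list assembled after values were seen, 13 were lower and 0 higher, with a median of -1.18. Keratocan, a small leucine-rich proteoglycan that spaces collagen fibrils, was at 135, 89.3 and 111 CPM at 0 mpa and at 14.97, 16.2 and 22.3 CPM at 1 dpa for kera.S (log2 fold change -2.65 ± 0.37 SE, adjusted p = 5.43e-07). Its copy kera.L was at 627, 391 and 474 CPM at 0 mpa and at 139, 118 and 156 CPM at 1 dpa (log2 fold change -1.85 ± 0.37 SE, adjusted p = 5.90e-04). Cilp.L, a cartilage and tendon matrix protein, was at 56.8, 67.7 and 46.7 CPM at 0 mpa and at 18.3, 4.66 and 14.4 CPM at 1 dpa (log2 fold change -2.18 ± 0.46 SE, adjusted p = 0.00126). None of these levels overlapped between the times. The count of lower genes was 8 without 0 mpa A or 1 dpa A, 7 without 0 mpa B and 6 without 1 dpa C.

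Of 81 tested immediate early factors, which switch on within minutes of a stimulus, 31 were higher at 1 dpa and 0 lower, with a median of 1.28. Fosl1.L, an AP-1 subunit of migrating epithelia, was at 1.199, 0 and 0 CPM at 0 mpa and at 52.7, 45.7 and 13.5 CPM at 1 dpa (log2 fold change 6.47 ± 0.73 SE, adjusted p = 4.47e-08), and fosl1.S at 0, 1.51 and 0.431 CPM at 0 mpa and at 35.3, 29.7 and 14.7 CPM at 1 dpa (log2 fold change 5.34 ± 0.57 SE, adjusted p = 4.44e-10). Library 1 dpa C was the lowest of its time for both, though still above every 0 mpa library. Junb.L was at 5.52, 11.6 and 3.01 CPM at 0 mpa and at 95.3, 78.5 and 94.7 CPM at 1 dpa (log2 fold change 3.75 ± 0.43 SE, adjusted p = 3.50e-09). Cebpb.L, a factor of keratinocytes and inflammation, was at 10.1, 8.81 and 10.1 CPM at 0 mpa and at 65.03, 58.6 and 65.1 CPM at 1 dpa (log2 fold change 2.7 ± 0.39 SE, adjusted p = 2.07e-06). Crem.S, the cyclic AMP responsive modulator, was at 0.2399, 0 and 0.431 CPM at 0 mpa and at 2.66, 13.3 and 4.45 CPM at 1 dpa (ratio of summed reads 26.2, 95% counting interval 8.72 to 129, adjusted p = 4.09e-04). All 5 were wholly separated between the times. Jun.L rose by 2.86 ± 0.43 on the log2 scale, egr1.L by 2.61 ± 0.42, atf3.L by 2.32 ± 0.43 and the stress gene gadd45g.S by 4.2 ± 0.71. Btg genes, antiproliferative partners of mRNA deadenylases, were listed after values were seen and gave 2 higher and 0 lower of 10 tested. The share of higher genes among all tested genes was 2.99%. Btg5.3.S was at 0.2399, 0 and 0.861 CPM at 0 mpa and at 53.7, 147 and 28.9 CPM at 1 dpa (log2 fold change 7.52 ± 0.65 SE, adjusted p = 5.88e-13) and btg5.2.L at 6.72, 5.54 and 5.599 CPM at 0 mpa and at 207, 157 and 137 CPM at 1 dpa (log2 fold change 4.8 ± 0.44 SE, adjusted p = 2.45e-12), with 1 dpa B highest for the first and 1 dpa A for the second. Of these genes junb.L, cebpb.L, jun.L, egr1.L, atf3.L and both btg5 genes were chosen after their values were seen. Fitted on the 6 libraries alone, crem.S missed the threshold (adjusted p = 0.0704).

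Genes of cytokines, chemokines and inflammation gave 19 higher and 3 lower of 110 tested, with a median of 0.72. Of 26 ligands 5 were higher and 1 lower (median 0.22), of 22 receptors 5 were higher and 2 lower (1.22), and of 62 signalling and effector genes 9 were higher and 0 lower (0.76). The count of 3 lower was 1 without 0 mpa A, 0 mpa B, 1 dpa A or 1 dpa B. Il11.S, a cytokine that signals through the gp130 receptor, was at 0 in all 3 libraries at 0 mpa and at 5.16, 5.99 and 5.49 CPM at 1 dpa (at least 23.5-fold higher, adjusted p = 0.00525), with nearly equal levels in the 3 libraries of 1 dpa. Cxcl8.S, which draws neutrophils, was at 0 in all 3 libraries at 0 mpa and at 2.33, 10.4 and 0.8903 CPM at 1 dpa (at least 16.5-fold higher, adjusted p = 0.00225). Il1b.L was at 0 in all 3 libraries at 0 mpa and at 0.665, 11.1 and 1.48 CPM at 1 dpa (at least 15.8-fold higher, adjusted p = 0.0473). Most reads of the latter 2 lay in 1 dpa B. Cxcl12.S, a chemokine that guides progenitor cells, was at 8.63, 9.31 and 13.8 CPM at 0 mpa and at 1.497, 0 and 1.19 CPM at 1 dpa (log2 fold change -3.47 ± 0.8 SE, adjusted p = 0.00380), and its scavenging receptor ackr3.L fell by 2.64 ± 0.75 on the log2 scale. Il10rb.S, a shared receptor chain of the interleukin 10 family, was at 0.4797, 1.01 and 1.94 CPM at 0 mpa and at 23.1, 43.5 and 22.1 CPM at 1 dpa (log2 fold change 4.64 ± 0.65 SE, adjusted p = 7.93e-07). Stat3.2.L, which gp130 activates, rose by 2.52 ± 0.39, the feedback inhibitor socs3.L by 4.17 ± 0.52 and the NF-kappaB subunit gene nfkb2.L by 2.58 ± 0.59. Ptgs2.S, the inducible enzyme of prostaglandin synthesis, was at 36.7, 23.9 and 42.9 CPM at 0 mpa and at 119, 161 and 125 CPM at 1 dpa (log2 fold change 1.97 ± 0.36 SE, adjusted p = 1.61e-04). Cxcl8.S, il1b.L, cxcl12.S, ackr3.L, ptgs2.S and the signalling genes were picked with their values in view. Calls were lost for il1b.L without 0 mpa A (adjusted p = 0.158), 0 mpa B (0.166), 0 mpa C (0.139), 1 dpa B (0.275) and 1 dpa C (0.0550); ackr3.L without 0 mpa A (0.106), 0 mpa B (0.0780), 1 dpa A (0.0563) and 1 dpa B (0.110). Il1b.L also missed the threshold in DESeq2 (adjusted p = 0.2405), under RLE scaling (0.0588), with a replicate block (0.0539), without the 2 shallowest libraries (0.0501), without these and 1 dpa B (0.243) and without 5 shallow or low-complexity libraries (0.169). A fit on the 6 compared libraries alone did not call cxcl12.S (adjusted p = 0.0661) or ackr3.L (0.112), and ackr3.L was not called without 1 dpa B and the 2 shallowest libraries (0.0564).

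Receptors of the tumour necrosis factor family, a list drawn up after values were seen, were higher for 6 of 16 tested and lower for 0. Tnfrsf12a.S, the receptor for the wound cytokine Tweak, was at 9.59, 1.76 and 1.72 CPM at 0 mpa and at 122, 130.4 and 120.5 CPM at 1 dpa (log2 fold change 4.83 ± 0.55 SE, adjusted p = 3.83e-08), and its copy tnfrsf12a.L at 6.24, 6.29 and 6.03 CPM at 0 mpa and at 116, 43.5 and 78.8 CPM at 1 dpa (log2 fold change 3.68 ± 0.47 SE, adjusted p = 1.41e-07). Tnfrsf6b.S, a gene named for the decoy receptor, was at 0 in all 3 libraries at 0 mpa and at 10.6, 7.32 and 9.497 CPM at 1 dpa (at least 39.8-fold higher, adjusted p = 2.61e-05). All of these separated the times without overlap. Tnfrsf6b.L rose by 3.52 ± 0.48 on the log2 scale, tnfrsf9.L by 3.35 ± 0.71 and tnfrsf21.L by 1.74 ± 0.4.

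Myeloid genes had a median of 1.22 over 62 tested members, of which 7 were higher and 0 lower (1 lower in DESeq2), and the summed level of 7 myeloid markers was 28.6 to 48.6 CPM at 0 mpa and 74.98 to 127 CPM at 1 dpa. Mpo.L, myeloperoxidase of neutrophil granules, was at 202, 186 and 126 CPM at 0 mpa and at 478, 342 and 545 CPM at 1 dpa (log2 fold change 1.41 ± 0.34 SE, adjusted p = 0.00578), and csf3r.L, the receptor for the neutrophil growth factor, at 2.88, 1.76 and 4.09 CPM at 0 mpa and at 18.96, 13.5 and 23.4 CPM at 1 dpa (log2 fold change 2.66 ± 0.62 SE, adjusted p = 0.00380). Coro1a.S, a coronin of leukocytes, rose by 1.9 ± 0.48 on the log2 scale. The levels of all 3 lay apart, with 1 dpa B lowest of its time for mpo.L and csf3r.L. No longer past the threshold were mpo.L without 0 mpa C (adjusted p = 0.0688) and 1 dpa C (0.0611); csf3r.L without 0 mpa B (0.0535); coro1a.S without 0 mpa A (0.103). The count of 7 was 3 without 0 mpa A, 0 mpa B or 1 dpa C. Mpo.L and coro1a.S were picked with their values in view. Of 15 lymphoid and 21 complement and coagulation genes 0 passed the test in edgeR or DESeq2, and 6 and 5 of them had an unadjusted p under 0.05 in edgeR. Over all 22268 tested genes, 3875 had an unadjusted p under 0.05 in edgeR.

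Signalling of the TGF-beta superfamily, which patterns tissues and builds matrix, gave 18 higher and 1 lower of 97 tested genes, and 0 lower in each fit that left out 1 library. By role, 1 of 18 ligands, 5 of 30 receptors and transducers and 12 of 49 targets and inhibitors were higher. Inhba.L, the activin A chain, was at 0, 2.01 and 0.431 CPM at 0 mpa and at 14.5, 1.33 and 17.95 CPM at 1 dpa (log2 fold change 3.78 ± 0.98 SE, adjusted p = 0.0140). Pmepa1, a TGF-beta target that restrains the pathway, was at 3.598, 1.76 and 5.599 CPM at 0 mpa and at 167, 171 and 118 CPM at 1 dpa for pmepa1.L (log2 fold change 5.35 ± 0.55 SE, adjusted p = 1.74e-09), and pmepa1.S was at 6.48, 3.27 and 6.89 CPM at 0 mpa and at 173, 173 and 122 CPM at 1 dpa (log2 fold change 4.8 ± 0.49 SE, adjusted p = 3.50e-10). Both pmepa1 copies stood apart between the times, whereas inhba.L reached only 1.33 CPM in 1 dpa B and overlapped 0 mpa B. Among transducers and corepressors, smad4.2.S rose by 2.75 ± 0.41 on the log2 scale, smad4.2.L by 1.91 ± 0.4, tgif1.S by 3.13 ± 0.46 and ski.S by 1.93 ± 0.4. Ccn2.L, a matricellular target of TGF-beta and Yap, was at 54.9, 50.8 and 67.4 CPM at 0 mpa and at 237, 138 and 191 CPM at 1 dpa (log2 fold change 1.71 ± 0.33 SE, adjusted p = 4.22e-04). The smad4.2 copies, tgif1.S, ski.S and ccn2.L were picked with their values in view. Without 1 dpa B the list had 10 higher genes. The threshold was missed by inhba.L without 0 mpa A (adjusted p = 0.0926), 0 mpa C (0.0889) and 1 dpa C (0.0687).

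Wnt signalling, which is needed for tail outgrowth, gave 13 higher and 0 lower (1 lower in DESeq2) of 93 tested genes, with a median of 0.63. Of 22 ligands 1 passed, wnt9b.2.L, at 0 in all 3 libraries at 0 mpa and at 2.66, 2.88 and 2.08 CPM at 1 dpa (at least 10.6-fold higher, adjusted p = 0.00346). Lef1, a nuclear partner of beta-catenin, was higher from both copies, with lef1.L at 115, 77.2 and 116 CPM at 0 mpa and at 498, 828 and 474 CPM at 1 dpa (log2 fold change 2.54 ± 0.39 SE, adjusted p = 4.43e-06) and lef1.S at 41.01, 40.8 and 66.1 CPM at 0 mpa and at 161, 423 and 143 CPM at 1 dpa (log2 fold change 2.29 ± 0.4 SE, adjusted p = 6.24e-05). Library 1 dpa B was the highest of its time for both. Rnf43.S, which removes Wnt receptors and is itself a Wnt target, was at 23.03, 9.06 and 26.9 CPM at 0 mpa and at 91.6, 143 and 71.1 CPM at 1 dpa (log2 fold change 2.36 ± 0.42 SE, adjusted p = 7.63e-05). Beta-catenin rose by 1.75 ± 0.34 for ctnnb1.L and 1.61 ± 0.36 for ctnnb1.S. The secreted antagonist sfrp2.L rose by 1.98 ± 0.39 and dkk3.S, of the Dickkopf family, by 2.78 ± 0.67. Wnt9b.2.L, ctnnb1.L, ctnnb1.S and sfrp2.L were picked with their values in view. Calls were lost for dkk3.S without 0 mpa A (adjusted p = 0.0636). In the fit on the 6 libraries alone dkk3.S (adjusted p = 0.0918) and wnt9b.2.L (0.122) were not called.

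Other developmental pathways gave fewer calls than the TGF-beta and Wnt lists. Over all tested genes 2.99% were higher and 1.58% lower. Of 85 tested genes of FGF, EGF and ERK feedback 7 were higher (4 without 0 mpa C) and 1 lower (0 without each library but 1 dpa C, 3 in DESeq2). Igfbp2.S, which binds insulin-like growth factors, was at 7.68, 4.53 and 9.69 CPM at 0 mpa and at 63.03, 42.4 and 86.8 CPM at 1 dpa (log2 fold change 3.12 ± 0.5 SE, adjusted p = 2.39e-05), and errfi1.L, which restrains the EGF receptor, rose by 2.29 ± 0.42 on the log2 scale. Errfi1.L was chosen after its values were seen. In the Notch pathway 5 of 50 were higher (3 without 0 mpa A or 0 mpa B, 2 without 1 dpa B) and 1 was lower (2 without 1 dpa C). The ligand jag1.L was at 36.2, 28.4 and 15.1 CPM at 0 mpa and at 85.8, 129 and 87.1 CPM at 1 dpa (log2 fold change 1.92 ± 0.4 SE, adjusted p = 0.00105). Hes2.L, a hairy-type repressor, was at 0, 3.77 and 0.215 CPM at 0 mpa and at 96.3, 188 and 66.6 CPM at 1 dpa (log2 fold change 6.48 ± 0.76 SE, adjusted p = 2.90e-07). Both were highest in 1 dpa B. Hes5.1.L went the other way, with log2 fold changes of -6.86 to -5.94 over 14 alternative fits, and was called in each. Cyp26a1, which breaks down retinoic acid, fell from both copies, with cyp26a1.S at 126, 41.8 and 102 CPM at 0 mpa and at 7.15, 3.77 and 14.99 CPM at 1 dpa (log2 fold change -3.35 ± 0.47 SE, adjusted p = 7.42e-07) and cyp26a1.L at 23.5, 9.81 and 20.03 CPM at 0 mpa and at 0.499, 3.11 and 0.8903 CPM at 1 dpa (log2 fold change -3.62 ± 0.7 SE, adjusted p = 3.84e-04). Hhip.L, a Hedgehog-binding inhibitor that is a Hedgehog target, was at 12.7, 13.1 and 9.26 CPM at 0 mpa and at 2.66, 0.222 and 1.93 CPM at 1 dpa (log2 fold change -2.8 ± 0.68 SE, adjusted p = 0.00598). No 1 dpa library reached the lowest 0 mpa level of these. Of 54 Hedgehog and retinoic acid genes 3 were lower, namely these, and 1 was higher (0 without 0 mpa A, 0 mpa B or 1 dpa B). Hhip.L was not called in the fit on the 6 libraries alone (adjusted p = 0.0708).

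Regulators of the blastema and wound epidermis gave 25 higher and 0 lower (2 lower in DESeq2) of 78 tested genes, with a median of 0.80. Runx1.L, a transcription factor of blood and activated epithelial and stromal cells, was at 3.598, 0.503 and 2.58 CPM at 0 mpa and at 189, 206 and 124 CPM at 1 dpa (log2 fold change 6.25 ± 0.54 SE, adjusted p = 1.67e-12). Sox11.S, a factor of embryonic progenitors, was at 2.399, 6.29 and 10.3 CPM at 0 mpa and at 65.4, 79.9 and 36.1 CPM at 1 dpa (log2 fold change 3.24 ± 0.45 SE, adjusted p = 7.42e-07). Sall4.L, a pluripotency and limb factor, was at 6.96, 2.77 and 5.17 CPM at 0 mpa and at 29.3, 33.7 and 13.4 CPM at 1 dpa (log2 fold change 2.34 ± 0.44 SE, adjusted p = 2.80e-04). These 3 genes separated the times in every library. Pthlh.S, a secreted hormone-like peptide, was at 0 in all 3 libraries at 0 mpa and at 17.8, 1.11 and 13.1 CPM at 1 dpa (at least 49.4-fold higher, adjusted p = 9.55e-05), with 5 reads in 1 dpa B. Sox4.L rose by 2.13 ± 0.41 on the log2 scale and sox9.L by 1.83 ± 0.36, both named after their values were seen. Of 52 genes of posterior and tail bud patterning 5 were higher, hoxa9.S at 12.7, 9.56 and 21.1 CPM at 0 mpa and at 50.4, 80.1 and 67.7 CPM at 1 dpa (log2 fold change 2.18 ± 0.49 SE, adjusted p = 0.00350) among them. Hoxa9.L rose by 1.65 ± 0.39. Not.S, a homeobox factor of notochord precursors, was at 0 in all 3 libraries at 0 mpa and at 4.16, 11.8 and 2.23 CPM at 1 dpa (at least 22.97-fold higher, adjusted p = 0.00336). The patterning count of 5 was 2 without 0 mpa A and 3 without 0 mpa B or 1 dpa C, and the threshold was missed by hoxa9.L without 0 mpa A (adjusted p = 0.0776).

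Homeobox and Sp factors of distal appendage ectoderm, which pattern the limb bud's outer rim and the fin fold, were gathered into a list after their values were seen. Of 28 tested 12 were higher and 0 lower, with a median of 1.42. Emx2.L was at 14.4, 7.05 and 11.8 CPM at 0 mpa and at 92.5, 109.8 and 70.6 CPM at 1 dpa (log2 fold change 3.03 ± 0.41 SE, adjusted p = 4.16e-07), and emx2.S rose by 2.14 ± 0.42 on the log2 scale. Dlx5.S was at 64.5, 58.1 and 76.4 CPM at 0 mpa and at 211, 641 and 218 CPM at 1 dpa (log2 fold change 2.42 ± 0.45 SE, adjusted p = 3.35e-04). Sp8.L, which keeps Fgf8 active in limb ectoderm, was at 92.1, 37.2 and 46.1 CPM at 0 mpa and at 188, 257 and 204 CPM at 1 dpa (log2 fold change 1.89 ± 0.41 SE, adjusted p = 0.00166). In each of these the times did not overlap, and 1 dpa B was the highest library for all but emx2.S. Emx1l.L rose by 2.57 ± 0.4, dlx2.S by 2.19 ± 0.46, dlx3.L by 1.61 ± 0.36 and msx1.S, a marker of undifferentiated bud cells, by 1.7 ± 0.36. Without 1 dpa B the list had 6 higher genes. No longer past the threshold were dlx2.S without 1 dpa B (adjusted p = 0.131); dlx3.L without 1 dpa B (0.0754); msx1.S without 1 dpa B (0.0814).

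**Figure D3:**
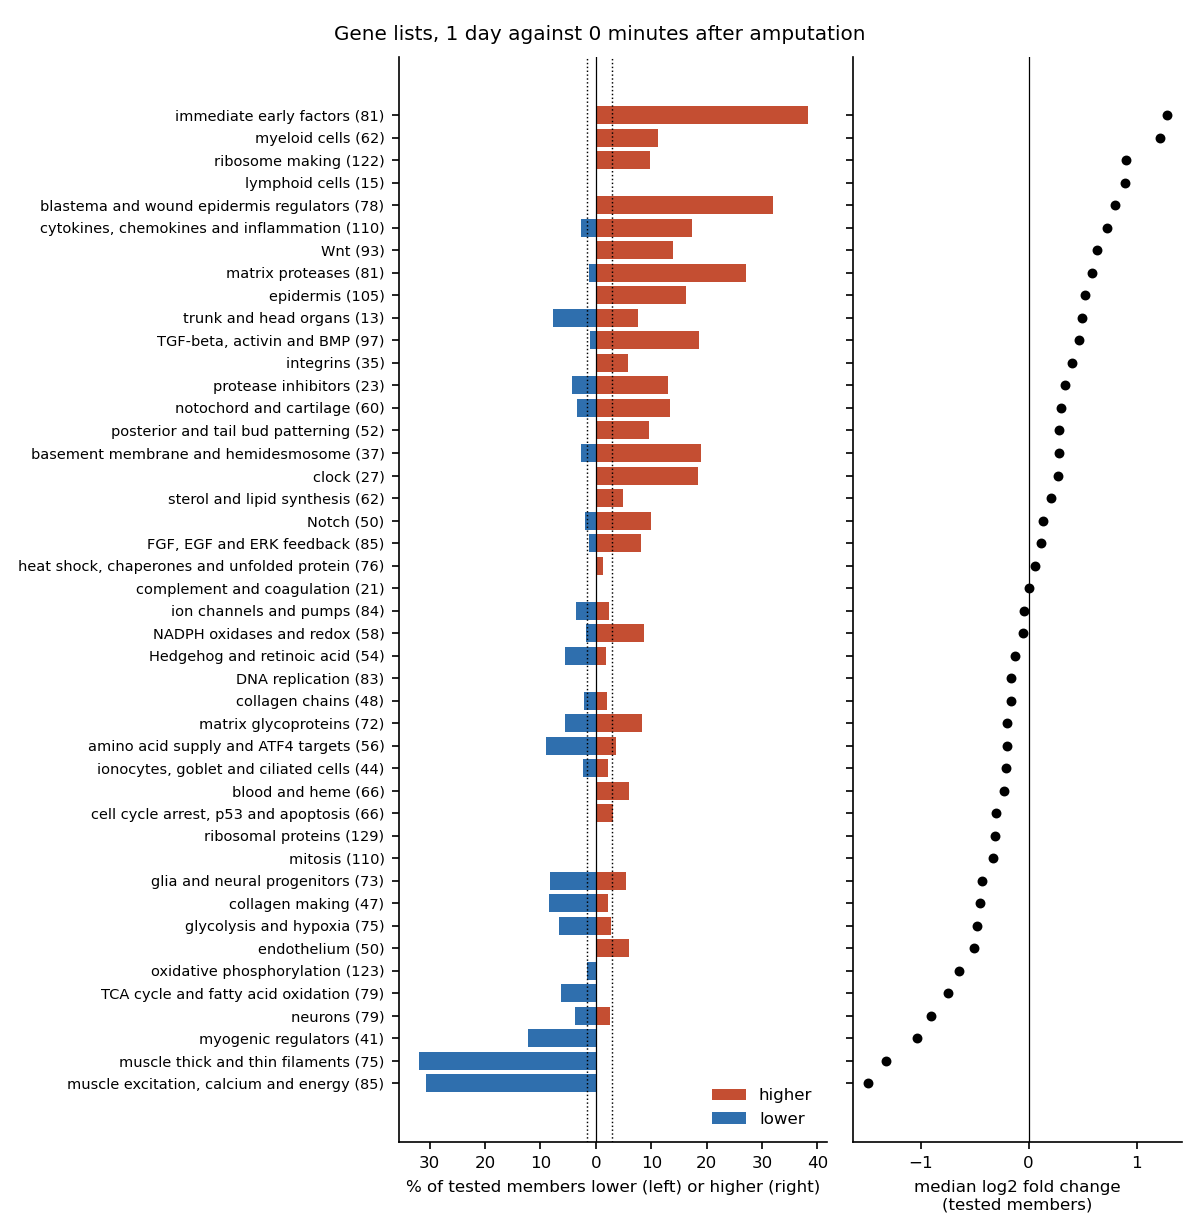
For 44 gene lists, the share of tested members that were lower (blue, left) or higher (red, right) at 1 dpa against 0 mpa, with the number tested in brackets, and in the right panel the median log2 fold change of the tested members. Dotted lines mark the shares over all tested genes, 1.58% lower and 2.99% higher; the muscle lists lie at the bottom and immediate early factors at the top.

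The 2 lists of skeletal muscle held the most lower genes of the 44 lists. Of 75 genes of thick and thin filaments 0 were higher (1 in DESeq2) and 24 lower, with a median of -1.32. Of 85 genes of excitation, calcium handling and energy supply 0 were higher and 26 lower, with a median of -1.49. Tpm2.L, a tropomyosin, was at 834, 698 and 653 CPM at 0 mpa and at 259, 131 and 114 CPM at 1 dpa (log2 fold change -2.11 ± 0.36 SE, adjusted p = 4.38e-05). Smyd1.L, a methyltransferase that helps fold muscle myosin, was at 109, 145 and 138 CPM at 0 mpa and at 28.8, 32.6 and 23.6 CPM at 1 dpa (log2 fold change -2.21 ± 0.42 SE, adjusted p = 2.76e-04). Myoz1.S, of the Z disc, was at 193, 439 and 149 CPM at 0 mpa and at 67.4, 23.1 and 44.2 CPM at 1 dpa (log2 fold change -2.53 ± 0.45 SE, adjusted p = 1.93e-04). Every 1 dpa library was below every 0 mpa library for these, and 0 mpa B was the highest for smyd1.L and myoz1.S. Ryr1.L, the calcium release channel of skeletal muscle, was at 659, 742 and 483 CPM at 0 mpa and at 186, 65.4 and 92.7 CPM at 1 dpa (log2 fold change -2.45 ± 0.41 SE, adjusted p = 3.06e-05). Prkag3.S, the muscle subunit of the energy sensor AMPK, was at 51.8, 65.9 and 55.3 CPM at 0 mpa and at 10.6, 3.77 and 6.53 CPM at 1 dpa (log2 fold change -3.03 ± 0.47 SE, adjusted p = 6.63e-06). Ocm4.2.S, a parvalbumin-like calcium buffer, was at 268, 817 and 236 CPM at 0 mpa and at 68.4, 27.7 and 54.01 CPM at 1 dpa (log2 fold change -3.13 ± 0.57 SE, adjusted p = 7.23e-04). For ryr1.L, prkag3.S and ocm4.2.S the lowest library was 1 dpa B. The calcium channel cacna1s.S fell by 1.71 ± 0.4 on the log2 scale, glycogen phosphorylase pygm.S by 1.81 ± 0.34, ampd1.L by 1.82 ± 0.4 and tmod4.L by 1.74 ± 0.36. Ryr1.L and the genes of the previous sentence were picked with their values in view. The summed level of the muscle markers was highest in 0 mpa B, and without it the counts of lower genes were 9 for filaments and 14 for excitation. The filament count was also 15 without 1 dpa B and 11 without 1 dpa C.

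Of 41 myogenic regulators 0 were higher and 5 lower, 2 of 41 had a positive fold change, and the median was -1.04. DESeq2 called 11 lower. Cdh15.L, a cadherin of muscle stem cells, was at 63.8, 91.1 and 73.6 CPM at 0 mpa and at 28.3, 30.2 and 25.97 CPM at 1 dpa (log2 fold change -1.44 ± 0.37 SE, adjusted p = 0.0114), and eya4.L at 47.7, 70.2 and 40.1 CPM at 0 mpa and at 20.5, 13.97 and 9.35 CPM at 1 dpa (log2 fold change -1.85 ± 0.45 SE, adjusted p = 0.00648). Both lay apart between the times. The count of 5 was 0 without 0 mpa B or 1 dpa C, 2 without 0 mpa C and 3 without 0 mpa A. The threshold was missed by cdh15.L without 0 mpa B (adjusted p = 0.0874) and 1 dpa C (0.0554); eya4.L without 0 mpa B (0.0789) and 1 dpa C (0.0643).

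Genes of energy metabolism had medians below 0. Over all tested genes 2.99% were higher and 1.58% lower. Of 123 genes of oxidative phosphorylation 2 were lower (9 in DESeq2) and 9 had a positive fold change, with a median of -0.65. Of 79 genes of the TCA cycle and fatty acid oxidation 5 were lower (15 in DESeq2) and 6 had a positive fold change, with a median of -0.74. Cpt1b.L, which brings fatty acids into muscle mitochondria, was at 232, 273 and 178 CPM at 0 mpa and at 109.8, 47.5 and 72.9 CPM at 1 dpa (log2 fold change -1.57 ± 0.34 SE, adjusted p = 0.00194). Glycolysis and hypoxia genes gave 2 higher (1 without 0 mpa B or 1 dpa A) and 5 lower (2 without 0 mpa B, 3 without 0 mpa A, 1 dpa B or 1 dpa C, 10 in DESeq2) of 75. Aldoc.L, an aldolase, was at 199, 219.9 and 171 CPM at 0 mpa and at 84.8, 58.3 and 52.4 CPM at 1 dpa (log2 fold change -1.59 ± 0.33 SE, adjusted p = 0.00105). Tkt.S, transketolase of the pentose phosphate pathway, went the other way, at 48.9, 52.8 and 45.9 CPM at 0 mpa and at 184, 228 and 219 CPM at 1 dpa (log2 fold change 2.1 ± 0.35 SE, adjusted p = 2.68e-05). Slc2a6.L, a sugar transporter among the 12 largest increases, was at 0 in all 3 libraries at 0 mpa and at 8.15, 5.102 and 7.86 CPM at 1 dpa (at least 30.9-fold higher, adjusted p = 1.46e-04). The groups did not overlap for any of the 4. Creatine genes, listed after values were seen, were lower for 7 of 12 tested and higher for 0. Gatm.S, the first enzyme of creatine synthesis, was at 179.6, 255 and 140.4 CPM at 0 mpa and at 43.6, 35.7 and 39.3 CPM at 1 dpa (log2 fold change -2.27 ± 0.39 SE, adjusted p = 5.94e-05), and the creatine kinase ckb.L at 1252, 1874 and 768 CPM at 0 mpa and at 363, 247 and 265 CPM at 1 dpa (log2 fold change -2.15 ± 0.38 SE, adjusted p = 7.01e-05). The 7 creatine genes became 2 without 0 mpa B, 4 without 1 dpa B and 3 without 1 dpa C. The oxidative phosphorylation count of 2 was 0 in the 4 fits without 0 mpa A, 0 mpa B, 0 mpa C or 1 dpa B and 1 without 1 dpa C, and the TCA count of 5 was 1 without 1 dpa B, 2 without 0 mpa B and 3 without 0 mpa A or 0 mpa C. The oxidative genes were lowest in 1 dpa B, where the mean log2(CPM + 1) of oxidative phosphorylation genes was -1.09 relative to 0 mpa, as all tested genes were at -0.31 there, against -0.48 in 1 dpa A and -0.45 in 1 dpa C.

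**Figure D4:**
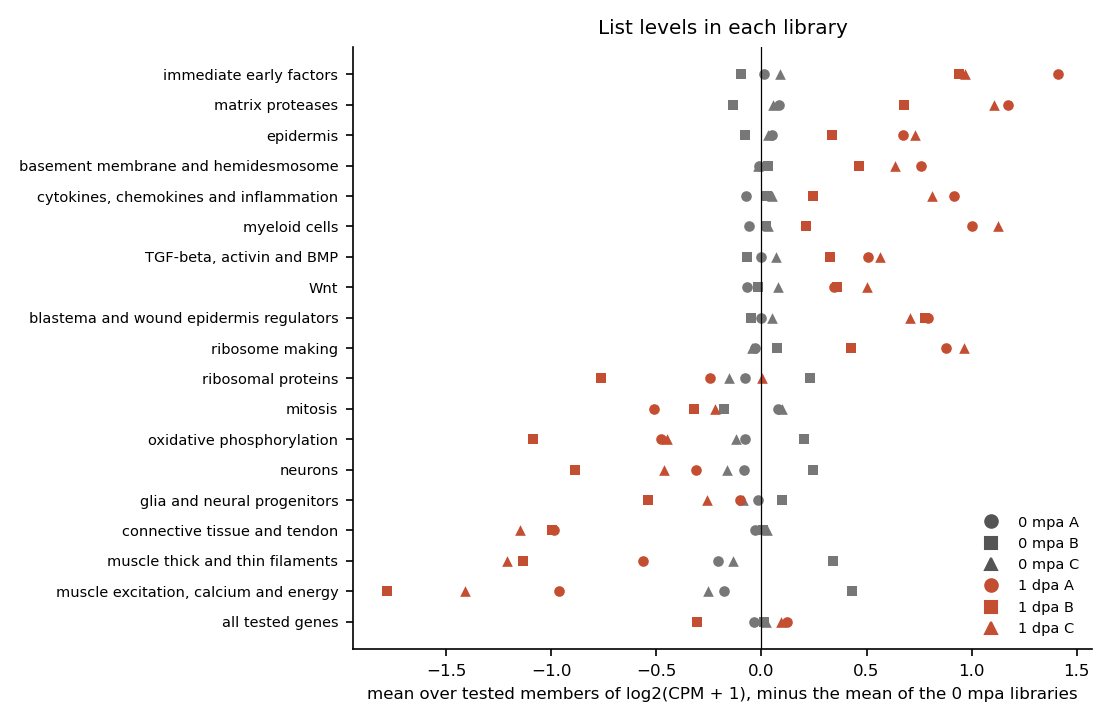
Mean over the tested members of a list of log2(TMM-scaled CPM + 1), relative to the mean of the 3 libraries at 0 mpa, for 18 lists and all tested genes. Grey marks 0 mpa, red 1 dpa, and the shape gives the library letter; 1 dpa B lies at -0.31 over all tested genes, against 0.12 in 1 dpa A and 0.09 in 1 dpa C.

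Spinal cord markers summed to 62.9 to 158 CPM at 0 mpa and 86.7 to 182 CPM at 1 dpa, with overlap. Tubb2b.S made up most of this sum, at 55.4, 93.4 and 36.2 CPM at 0 mpa and at 125, 66.3 and 133 CPM at 1 dpa. Nefm.S was at 2.88, 19.6 and 7.32 CPM at 0 mpa and at 0.832, 0 and 2.08 CPM at 1 dpa. Of 79 neuronal genes 2 were higher and 3 lower (1 without 1 dpa C, 5 in DESeq2), with a median of -0.91. By comparison, 2.99% of all tested genes were higher and 1.58% lower. Cplx1.S, of synaptic vesicle release, was at 32.4, 29.9 and 26.5 CPM at 0 mpa and at 5.65, 1.996 and 5.19 CPM at 1 dpa (log2 fold change -2.77 ± 0.56 SE, adjusted p = 7.40e-04). Dcx.L, a tubulin-binding protein of migrating neurons, was at 0, 1.01 and 0 CPM at 0 mpa and at 10.3, 10.4 and 3.71 CPM at 1 dpa (log2 fold change 4.55 ± 1.08 SE, adjusted p = 0.00466). Of 73 glial and neural progenitor genes 4 were higher and 6 lower, with a median of -0.43. Kcnj10.L, a potassium channel of glia, was at 6.48, 6.79 and 2.37 CPM at 0 mpa and at 0 in all 3 libraries at 1 dpa (at least 29.2-fold lower, adjusted p = 0.00254). Slc1a3.L, the glial glutamate transporter, was at 32.1, 44.03 and 35.5 CPM at 0 mpa and at 8.48, 0.222 and 9.79 CPM at 1 dpa (log2 fold change -2.56 ± 0.51 SE, adjusted p = 7.23e-04). All 4 separated the times, and slc1a3.L was close to 0 in 1 dpa B. Transcription factors of neural fate, listed after values were seen, gave 0 higher and 9 lower of 43. Neurog3.L, a proneural factor, was at 4.797, 0.755 and 6.89 CPM at 0 mpa and at 0 in all 3 libraries at 1 dpa (at least 24.7-fold lower, adjusted p = 0.00873). Dbx1.S, a homeobox factor of spinal cord interneuron progenitors, was at 5.996, 4.28 and 7.11 CPM at 0 mpa and at 0.499, 0 and 0.445 CPM at 1 dpa (log2 fold change -4.02 ± 1.06 SE, adjusted p = 0.0137). Neurod1.S, a factor of differentiating neurons, was at 9.83, 3.02 and 2.58 CPM at 0 mpa and at 0.166, 0 and 0.148 CPM at 1 dpa (ratio of summed reads 43.9, 95% counting interval 11.7 to 369.9, adjusted p = 0.0178). Of the last 3 genes, reads at 1 dpa were few or 0, and their levels did not overlap between the times. Calls were lost for dbx1.S without 1 dpa B (adjusted p = 0.0590); neurod1.S without 0 mpa A (0.117), 1 dpa A (0.0608), 1 dpa B (0.0724) and 1 dpa C (0.0690). The fate count of 9 was 5 without 0 mpa A, 0 mpa B, 1 dpa B or 1 dpa C. The glial count of 6 lower was 3 without 1 dpa B, and that of 4 higher was 0 without 0 mpa B, 1 without 0 mpa A or 1 dpa B and 2 without 0 mpa C, 1 dpa A or 1 dpa C. Slc1a3.L and neurog3.L were named after their values were seen. With only the 6 libraries fitted, dcx.L (adjusted p = 0.0850), slc1a3.L (0.0676), dbx1.S (0.0911) and neurod1.S (0.0631) were not called, and neurod1.S was not called without 1 dpa B and the 2 shallowest libraries (0.0533).

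Pigment cell genes, listed after values were seen, gave 4 lower and 0 higher of 16 tested. Tyrp1.L, a melanin enzyme, was at 75.1, 73.98 and 71.3 CPM at 0 mpa and at 17.96, 9.32 and 17.2 CPM at 1 dpa (log2 fold change -2.3 ± 0.42 SE, adjusted p = 1.75e-04). Pmel.L, the fibril protein of melanosomes, was at 71.7, 62.2 and 36.4 CPM at 0 mpa and at 16.6, 6.65 and 12.17 CPM at 1 dpa (log2 fold change -2.25 ± 0.45 SE, adjusted p = 7.15e-04), and dct.L, another melanin enzyme, at 12.95, 14.3 and 9.04 CPM at 0 mpa and at 0.166, 2.22 and 1.19 CPM at 1 dpa (log2 fold change -3.36 ± 0.79 SE, adjusted p = 0.00418). Each was lower in all 1 dpa libraries than in any 0 mpa library. Mafa, a basic leucine zipper factor named among the 12 lowest genes, fell from both copies, with mafa.S at 23.3, 48.6 and 20.9 CPM at 0 mpa and at 2.83, 0 and 1.48 CPM at 1 dpa (log2 fold change -4.34 ± 0.66 SE, adjusted p = 7.79e-06) and mafa.L at 9.59, 18.9 and 7.11 CPM at 0 mpa and at 0.832, 0 and 0.594 CPM at 1 dpa (log2 fold change -4.49 ± 1.00 SE, adjusted p = 0.00259). Of the same 12, kcna6.S, a potassium channel, was at 11.5, 2.52 and 1.51 CPM at 0 mpa and at 0 in all 3 libraries at 1 dpa (at least 29.2-fold lower, adjusted p = 0.00394). Camk1g.L, a calmodulin-dependent kinase, was at 7.44, 3.02 and 8.83 CPM at 0 mpa and at 0.166, 0 and 0.445 CPM at 1 dpa (log2 fold change -4.71 ± 1.15 SE, adjusted p = 0.00651). Each of these 4 was at 0 in 1 dpa B. Camk1g.L missed the threshold when only the 6 libraries of these times were fitted (adjusted p = 0.0581).

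Of 83 DNA replication genes 0 were called by edgeR, 7 reached an unadjusted p under 0.05, and 2 higher and 1 lower were called by DESeq2. EdgeR called 1 without 0 mpa A. Of 110 mitosis genes 0 were called by either tool and 10 had an unadjusted p under 0.05 in edgeR. Their medians were -0.16 and -0.33. Over all 22268 tested genes, 3875 had an unadjusted p under 0.05 in edgeR. Cdkn2b.L, an inhibitor of cell cycle entry that TGF-beta induces, was at 0 in all 3 libraries at 0 mpa and at 7.65, 5.32 and 4.45 CPM at 1 dpa (at least 24.7-fold higher, adjusted p = 0.00622). Mcl1.L, which protects from apoptosis, rose by 1.67 ± 0.38 on the log2 scale. Among 66 genes of arrest, p53 and apoptosis these were the 2 higher (1 without 0 mpa A), with 0 lower. The share of higher genes in this list was near that of all tested genes, of which 2.99% were higher and 1.58% lower. The genes that build ribosomes were mostly above 0 in fold change and those of ribosomal proteins were not. Of 122 genes for building ribosomes 12 were higher, 0 lower and 108 had a positive fold change, with a median of 0.90. Nop9.L was at 4.56, 18.1 and 10.98 CPM at 0 mpa and at 42.1, 55.2 and 42.4 CPM at 1 dpa (log2 fold change 2.05 ± 0.43 SE, adjusted p = 0.00125), and bop1.S at 19.4, 28.4 and 18.7 CPM at 0 mpa and at 71.02, 95.8 and 56.8 CPM at 1 dpa (log2 fold change 1.75 ± 0.39 SE, adjusted p = 0.00221). Of 129 ribosomal protein genes 0 passed in edgeR, 2 reached an unadjusted p under 0.05 and 2 were lower by DESeq2, with a median of -0.31. Wdr43, of the small subunit processome, rose by 1.63 ± 0.36 for wdr43.L and 1.57 ± 0.35 for wdr43.S, chosen after their values were seen. In 1 dpa B the mean of ribosomal protein genes was -0.76 on the log2 scale relative to 0 mpa, against -0.25 and 0.00391 in 1 dpa A and C. Leaving out 0 mpa A, 0 mpa B or 0 mpa C brought the 12 ribosome making genes to 5, 6 and 7. The call of mcl1.L was lost without 0 mpa A (adjusted p = 0.0756).

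Several smaller lists held single strong members. The shares over all tested genes, beside which their counts are to be read, were 2.99% higher and 1.58% lower. Of 58 NADPH oxidase and redox genes 5 were higher (2 without 0 mpa A, 3 without 0 mpa B or 1 dpa A) and 1 lower. Hmox1.L, which breaks down heme under oxidative stress, was at 6.96, 7.297 and 6.89 CPM at 0 mpa and at 36.8, 33.1 and 26.9 CPM at 1 dpa (log2 fold change 2.19 ± 0.49 SE, adjusted p = 0.00254), and aqp1.L, a water channel, at 478, 412 and 515 CPM at 0 mpa and at 146, 148 and 99.6 CPM at 1 dpa (log2 fold change -1.84 ± 0.35 SE, adjusted p = 3.03e-04). Cat.3.L, listed with the catalases, rose by 4.21 ± 0.98 on the log2 scale. Of 66 blood and heme genes 4 were higher, cat.3.L and both hmox1 copies among them, and 0 lower (3 in DESeq2). Urod.S, of heme synthesis, was at 11.8, 13.6 and 9.26 CPM at 0 mpa and at 63.9, 38.2 and 62.5 CPM at 1 dpa (log2 fold change 2.25 ± 0.5 SE, adjusted p = 0.00252). These genes did not overlap between the times; the summed blood markers did, at 388 to 1579 CPM at 0 mpa and 761 to 1307 CPM at 1 dpa. Ch25h.L, which makes the oxysterol 25-hydroxycholesterol, was at 0, 3.52 and 0.646 CPM at 0 mpa and at 19.96, 21.1 and 16.3 CPM at 1 dpa (log2 fold change 3.79 ± 0.58 SE, adjusted p = 4.61e-06). Sms.L, spermine synthase, was at 81.1, 87.6 and 88.9 CPM at 0 mpa and at 23.8, 9.09 and 32.5 CPM at 1 dpa (log2 fold change -1.97 ± 0.39 SE, adjusted p = 6.22e-04). Slc43a1.L, an amino acid transporter, was at 63.1, 59.9 and 40.9 CPM at 0 mpa and at 17.6, 4.88 and 15.3 CPM at 1 dpa (log2 fold change -2.1 ± 0.45 SE, adjusted p = 0.00147). The latter 2 were lowest in 1 dpa B. Endothelial genes gave 3 higher of 50 (1 without 0 mpa B or 1 dpa A, 0 without 0 mpa C) and 0 lower (2 without 1 dpa A, 1 without 1 dpa C, 3 in DESeq2), with a median of -0.50, and their 7 markers summed to 146 to 175 CPM at 0 mpa and 78.2 to 110 CPM at 1 dpa. Aqp1.L was named after its values were seen.

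Many genes of Xenopus laevis exist as homeologous copies, written with .L for the long and .S for the short subgenome. Of 5791 pairs with both copies tested, 76 had both higher and 39 both lower, and 1 pair had its copies called in opposite directions. A single copy was called in 374 pairs, the L copy in 215 and the S copy in 159. The other copy had the same sign in 327 of these pairs and the opposite sign in 47, and had an unadjusted p under 0.05 in 153. A call in 1 copy alone is no test that the copies differed, and reads of similar copies may have been split in counting.

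Between 6 hpa and 1 dpa 74 genes changed (0.332%), 25 higher (0.112%) and 49 lower (0.220%). The number was 32 without 1 dpa C, 39 without 6 hpa A or 6 hpa B, 42 without 1 dpa B and 43 without 6 hpa C. A fit on the 6 libraries of these times alone called 5 genes, 3 higher and 2 lower, among them hes2.L, fosb.S and tns4.S, while aebp1.L and mras.S missed the threshold there (adjusted p = 0.0512 for both). Lamb3.S had 166 ± 28.4 CPM at 6 hpa and 216 ± 67.2 CPM at 1 dpa (mean ± SD, n = 3), and the step did not pass (0.38 ± 0.43 SE, adjusted p = 0.918). Hes2.L had 1.47 ± 0.426 CPM and 117 ± 63.3 CPM (6.16 ± 0.77 SE, adjusted p = 1.28e-05), and aebp1.L, of collagen-rich stroma, 12.1 ± 4.84 CPM and 83.5 ± 26.8 CPM (2.7 ± 0.48 SE, adjusted p = 0.00109). Both rose between these times. Fosb.S, an AP-1 subunit, fell, with 151 ± 18.9 CPM at 6 hpa and 12.01 ± 7.06 CPM at 1 dpa (-3.66 ± 0.48 SE, adjusted p = 1.24e-05). Of the 81 tested immediate early factors 0 were higher and 9 lower at 1 dpa than at 6 hpa, with a median of -0.79. Tns4.S, the copy of tns4.L, had 64.8 ± 12.6 CPM and 7.86 ± 3.05 CPM (-3.01 ± 0.42 SE, adjusted p = 1.28e-05). Mras.S, a Ras-related GTPase, had 51.3 ± 22.7 CPM and 4.13 ± 2.46 CPM (-3.58 ± 0.5 SE, adjusted p = 1.28e-05). Both fell as well. Against 0 mpa, mras.S did not pass the test at 1 dpa (adjusted p = 0.807). Tns4.S, still above 0 mpa at 1 dpa, missed the threshold in that comparison without 0 mpa A (adjusted p = 0.194), 0 mpa B (0.209), 1 dpa A (0.189) and 1 dpa C (0.0766), and in the fit on those 6 libraries alone (0.326). The comparison with 6 hpa shares the 1 dpa libraries with that against 0 mpa, so the values stand side by side and are not independent.

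Between 1 and 3 dpa 161 genes changed (0.723%), 29 higher (0.130%) and 132 lower (0.593%). The number was 85 without 1 dpa A, 89 without 3 dpa A and 80 without 3 dpa C. A fit with edgeR on the 6 libraries of these times alone called 3 higher and 0 lower, so that every lower call was lost, with 431 higher and 653 lower before adjustment (p under 0.05). Over all libraries DESeq2 gave 58 higher and 166 lower. In the fit on these 6 libraries the adjusted p was 0.0916 for not.S, 0.102 for not.L, 0.1002 for stc1.L, 0.0746 for lamb3.S, 0.211 for cat2.L, 0.1002 for otos.L and 0.181 for acta1.S. Not.S went from 6.05 ± 5.04 CPM to 92.6 ± 63.1 CPM (3.96 ± 0.78 SE, adjusted p = 0.0103), and not.L from 1.12 ± 1.29 CPM to 29.3 ± 18.02 CPM (4.62 ± 1.04 SE, adjusted p = 0.0144). Stc1.L, the calcium-regulating hormone stanniocalcin, went from 2.11 ± 2.7001 CPM to 48.3 ± 5.04 CPM (4.46 ± 0.79 SE, adjusted p = 0.00190). The means of these genes were higher at 3 dpa than at any other time. The step of not.S missed the threshold without 1 dpa A (adjusted p = 0.0831) or 1 dpa C (0.05002), and that of not.L without 1 dpa A (0.102) or 3 dpa B (0.132). Lamb3.S fell from its highest mean, at 1 dpa, to 43.9 ± 11.7 CPM (-2.3 ± 0.45 SE, adjusted p = 0.00468). DESeq2 did not call this step of lamb3.S (adjusted p = 0.222) or that of not.L (0.146). Cat2.L went from 6.17 ± 3.02 CPM to 0 in all 3 libraries, otos.L from 11.9 ± 6.32 CPM to 0.169 ± 0.157 CPM and acta1.S, a skeletal actin copy, from 10.01 ± 5.43 CPM to 0.248 ± 0.304 CPM. Against 0 mpa, stc1.L had 0 reads in 1 dpa B and missed the threshold without 0 mpa A (adjusted p = 0.0744), 0 mpa B (0.0763), 0 mpa C (0.0649) and 1 dpa A (0.145). Of 44 ionocyte, goblet and ciliated cell genes 8 were lower at 3 dpa than at 1 dpa. The muscle lists held more lower genes at this step, 11 of 75 for filaments (median -1.07) and 15 of 85 for excitation (median -1.10). Of 66 blood and heme genes 7 were lower.

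**Figure D5:**
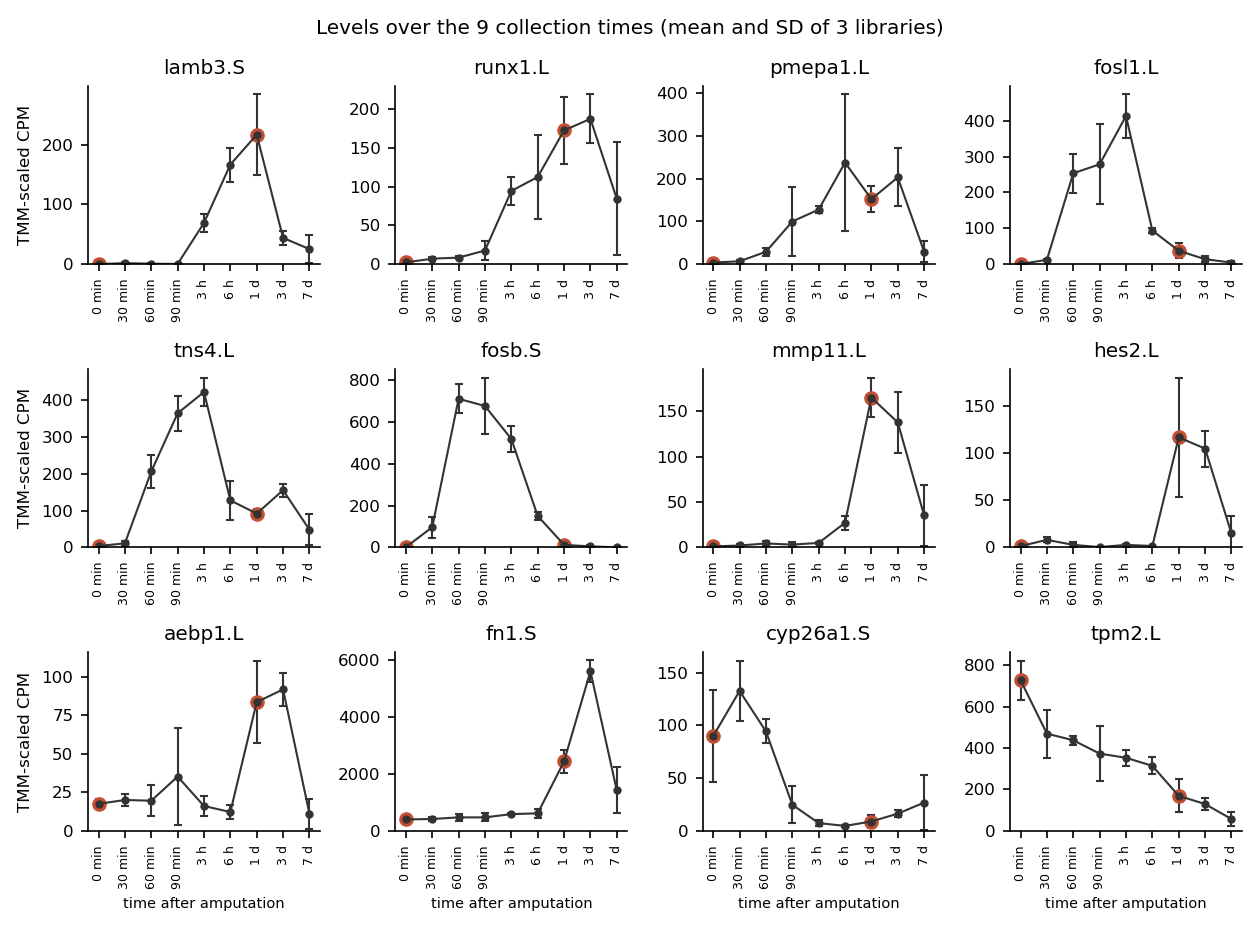
TMM-scaled CPM of 12 genes at the 9 collection times (mean and SD of 3 libraries, time points evenly spaced), with 0 mpa and 1 dpa in red. Means were highest at 3 hpa for fosl1.L and tns4.L, at 1 dpa for lamb3.S and hes2.L and at 3 dpa for fn1.S. For lamb3.S, 1 dpa did not differ from 6 hpa by edgeR's test (adjusted p = 0.918). The SDs at 90 mpa and 7 dpa include very shallow libraries.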

How the data were processed

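Total RNA of amputated tails was made into libraries with the Lexogen SENSE Total RNA-Seq kit and sequenced on a NextSeq 500, per the labels. The authors deposited non-normalized whole-number counts per gene; per the submitters' processing notes, DESeq2 1.32.0, HTSeq 0.6.1p1, R 4.1.0 and STAR 2.7.9a were used in roles not named there. The sources used here give no genome build, annotation or strand setting.

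Counts were fitted over all 27 libraries with edgeR 4.0.16 (limma 3.58.1, R 4.3.3): TMM scaling, filterByExpr by time, robust quasi-likelihood dispersions and Benjamini-Hochberg adjustment over 22268 genes at 0.05. Of 29776 genes, 7508 were dropped by the filter. CPM are TMM-scaled. Where a time had 0 reads, the fold is a bound against 3 reads over its 3 libraries; with 1 to 3 reads, the ratio of summed reads has an exact 95% interval that covers counting error only. Values after ± are SE for fold changes and SD for levels.

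The comparison, its genes and all lists were chosen with earlier results of these data known. The naming rule took the 12 highest and 12 lowest fold changes, up to 4 members of each of 44 lists and the 5 highest and lowest of the neighbouring comparisons, among genes past the threshold with at least 5 CPM in the higher group, giving 162 genes, of which some are not reported here. Another 8 lists and 88 genes were chosen after values were seen. Alternatives were RLE scaling, no filter, other sets of libraries, a replicate block, DESeq2 1.42.0 and leaving out each library in turn. No sequences were used here.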

Additional observations from a re-analysis of the deposited data

How the results depend on the processing

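Of the 1016 genes changed at 1 dpa against 0 mpa, the 74 against 6 hpa and the 161 at 3 dpa against 1 dpa, 0 reversed in any fit that gave them a value. The fit on the 6 compared libraries gave values for 976, 74 and 142 of them, and that without 5 shallow or low-complexity libraries for 1015 of the 1016. Leaving out 1 library gave 501 to 817, 32 to 62 and 80 to 134 changed genes. Without the libraries 90 mpa C and 7 dpa C, the shallowest, the counts were 1931, 315 and 379, and without 5 shallow or low-complexity libraries 2016, 244 and 443. Without a filter on low counts they were 1172, 149 and 258. A fit on the 6 compared libraries alone gave 893, 5 and 3, the last with 0 lower. DESeq2 gave 1303 (682 higher, 52.3%), 165 and 224, and RLE scaling 1082 (53.6% higher, against 65.5% with TMM), 96 and 146. Without 1 dpa B and the shallowest libraries, an alternative chosen after seeing the data, the first count was 1308. The causes were not tested.

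The replicate block gave 1006, 82 and 156 changed genes. Between 0 mpa and 1 dpa, deviations of same-letter libraries from their group means correlated at 0.041 for A, -0.092 for B and -0.137 for C over 14122 genes. With 3 libraries per time, these values cannot decide whether the letters pair the libraries. Upper-quartile scaling was not run because the upper quartile of 7 dpa C was 0 reads. Of 233 named genes that changed at 1 dpa against 0 mpa, 145 passed in every alternative, 190 passed without 1 dpa B, and 0 reversed. Genes with few reads rest on little depth, since a group with 0 reads is compatible with up to 3.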
